A study of Rattus norvegicus with 42 samples.

Results

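The gene families that make the lysosome acidic and digestive were followed in rat lung after inhaled silica: the subunits of the vacuolar proton pump (V-ATPase) and the cathepsins. Members were all gene symbols beginning with Atp6v or Atp6ap, and all symbols made of Cts and 1 further letter, with at least 10 counts in at least 4 rats of a table. Of 42 matching symbols, 25 of the pump and 17 of the cathepsins, 32 were kept among the 30044 symbols shared by both tables. The 32 were 20 pump genes and 12 cathepsins. The 10 left out were Atp6ap1l, Atp6v1b1, Atp6v1e2, Atp6v1g2, Atp6v1g3, Ctsg, Ctsj, Ctsm, Ctsq and Ctsr. Nearest the limit were Atp6ap1l, left out with 10 counts in 3 of 23 rats at 9 months, and Atp6v0a4, kept with 18 of 19 rats at 3 months and 9 of 23 at 9 months. All 32 members also passed the filter on low counts in every model, so no member dropped out of a test.

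The V-ATPase is a rotary machine. Its cytosolic V1 domain burns ATP, and its membrane V0 domain carries protons into the lysosome. Cathepsins are the proteases that work in that acid, and alveolar macrophages, which swallow inhaled dust, hold them in large amounts. Crystalline silica is known to injure the lysosomes of the macrophages that take it up.

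The RNA came from a piece of lung of 42 male Fischer 344 rats bought at 3 months of age, 1 library per rat. The regular diet held 18% of its energy as fat and the high-fat diet 60%, and each was begun 2 weeks before exposure and kept to the end. They then breathed either air or crystalline silica at 15 mg/m3, whole body, for 6 hours a day on 5 days, and were sampled 3 or 9 months later. The air group on the regular diet had 4 rats at 3 months, and the other groups of that time had 5 each, namely regular diet with silica and the high-fat diet under either exposure. At 9 months the regular-diet silica group had 5 rats and the other groups 6 each. Separate rats were sampled at each time, and each time has its own count table. All rats were bought at the same age, so time after exposure, age, time on the diet and table cannot be told apart.

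Libraries held between 3078216 and 8319382 counts. Levels are given in CPM, the counts scaled to a common library size, as mean ± SD over rats. Changes are log2 fold changes ± SE, and a gene was called when its adjusted p was below 0.05 (edgeR quasi-likelihood test, Benjamini-Hochberg adjustment over all genes). The share of counts on the ribosomal genes Rnr1 and Rnr2 had group means of 0.957% to 1.26% at 3 months. At 9 months it was 1.22% and 3.67% on the regular diet in air and with silica, and 6.21% and 7.66% on the high-fat diet. No ranges of that share overlapped between the 9-month groups, from 0.375% to 2.29% and 2.60% to 5.35% on the regular diet to 4.62% to 7.19% and 7.29% to 7.85% on the high-fat diet (air and silica), except those of regular-diet silica and high-fat air. The share thus moved with silica as well as with diet at 9 months, and with it as a covariate 23 members in place of 25 were called for silica on the regular diet and 28 in place of 29 on the high-fat diet. Markers of the lung were present in every group, with the summed level of 8 alveolar type 2 cell genes between 14541 and 37475 CPM in single rats.

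A pair of air rats at 3 months stood apart in 1 member. Atp6ap1, an accessory protein of the pump, was at 288 CPM in regular-diet air rat 3 and 292 CPM in high-fat air rat 2, against 144 to 192 CPM in the other 17 rats of that time. Its 11 neighbours on the X chromosome were raised in the same rats, and every 3-month value for Atp6ap1 is therefore given with and without them.

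Genes of both families were higher with silica at both times and on both diets. On the regular diet at 3 months 9 of 20 pump genes and 9 of 12 cathepsins rose and 1 cathepsin fell, where 16.8% of all 15234 genes were called, 10.2% higher and 6.6% lower. On the high-fat diet at 3 months 11 pump genes and 9 cathepsins rose and 1 cathepsin fell (17.4% of all genes, 9.23% higher and 8.19% lower). At 9 months the counts were 15 pump genes and 9 cathepsins higher and 1 cathepsin lower on the regular diet (45.1% of all 15276 genes, 24.5% higher and 20.6% lower), and 17 and 11 higher and 1 lower on the high-fat diet (51.6%, 26.7% higher and 24.9% lower). The median log2 fold change of the pump genes was 0.20, 0.21, 0.31 and 0.50 in these 4 comparisons, and that of the cathepsins 0.58, 0.54, 0.92 and 1.14, while the median of all genes lay between -0.0085 and 0.0045. In whole lung, more cells of a type and more RNA per cell cannot be told apart. Without both air rats that stood apart, 5 pump genes in place of 9 passed on the regular diet at 3 months, with 3 air rats left. In all 13 members in place of 19 passed there, and 1762 of all genes in place of 2561.

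**Figure D1:**
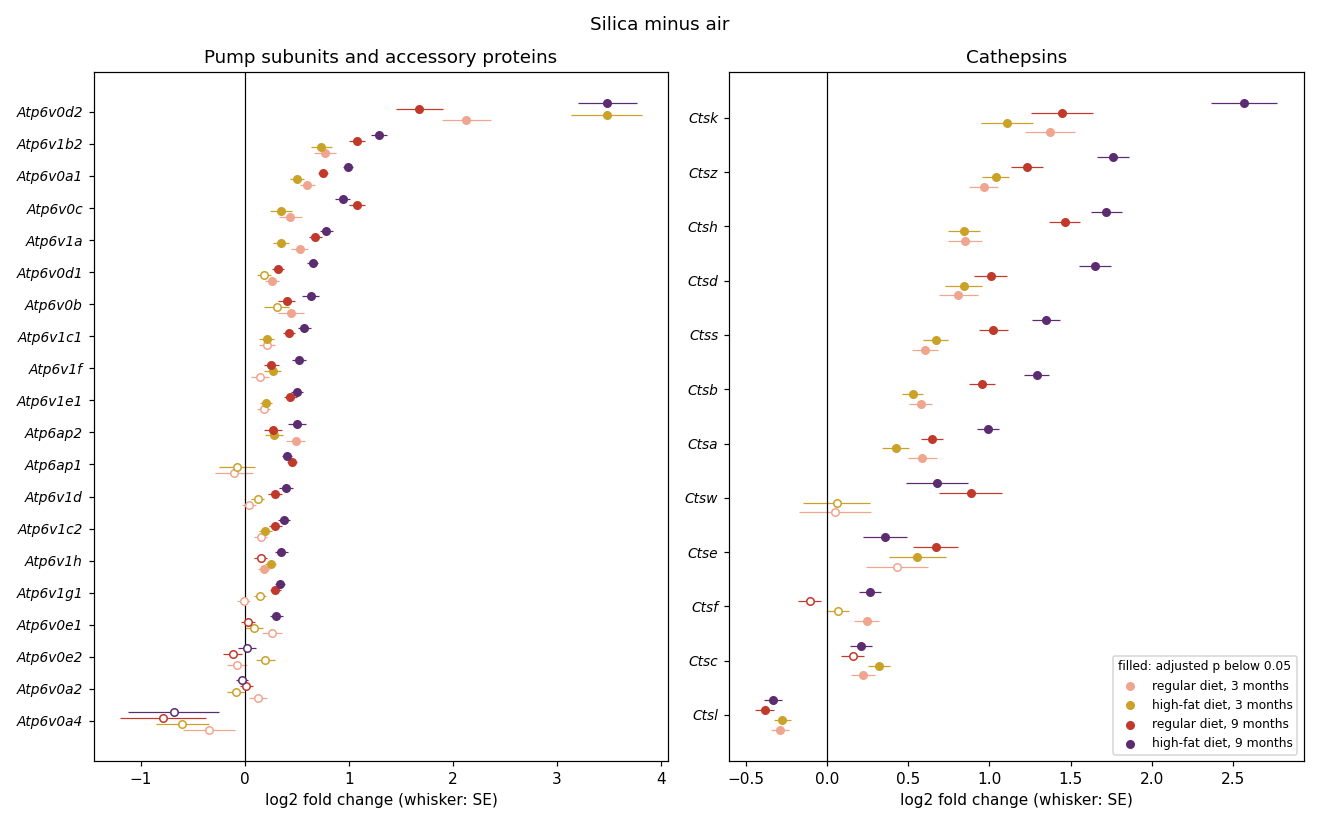
Log2 fold change (silica minus air) of each pump gene (left) and cathepsin (right) in 4 comparisons, with its standard error as a whisker; filled points have an adjusted p below 0.05. Atp6v0d2 lies farthest to the right among pump genes, at 1.67 to 3.48, Ctsk ranges from 1.11 to 2.57, and Ctsl is the cathepsin left of 0 with filled points in all 4 comparisons.

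In the pump, 6 genes were higher with silica in all 4 comparisons, Atp6v1a, Atp6v1b2, Atp6v0a1, Atp6v0c, Atp6v0d2 and Atp6ap2. The calls of Atp6ap2 and Atp6v0c on the high-fat diet at 3 months were lost with the Rnr1 and Rnr2 share as a covariate, and without high-fat silica rat 1 or 5. That of Atp6ap2 was also lost without high-fat silica rat 4 or high-fat air rat 1. Its call on regular food at 9 months was lost in a fit of the 2 groups alone and without silica rat 2 or 4. The V1 head holds the catalytic A subunit, encoded by Atp6v1a, and the B subunit beside it, encoded by Atp6v1b2. On the regular diet at 3 months the 4 air rats had 91.0, 96.8, 80.4 and 90.5 CPM of Atp6v1b2, and the 5 silica rats 120.7, 148, 154, 196 and 144 CPM. All silica rats were above all air rats, and the gene rose by 0.77 ± 0.11 (adjusted p = 2.83e-05, edgeR). It rose by 0.73 under the high-fat diet at that time, and in the 9-month rats by 1.08 (regular diet) and 1.29 (high-fat diet). At 9 months it ranged from 68.0 to 82.2 CPM in regular-diet air rats and from 126 to 183 CPM with silica, so the groups were far apart. Atp6v1a rose by 0.52, 0.34, 0.68 and 0.78 in the same order.

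The stalks and regulatory parts of V1 moved less. Atp6v1h, the regulatory H subunit, rose by 0.19 and 0.24 at 3 months and by 0.35 on the high-fat diet at 9 months, and stood at 0.15 ± 0.06 on the regular diet at 9 months (adjusted p = 0.0574, edgeR). Atp6v1c1 and Atp6v1c2, alternative C subunits that join head and stalk, rose by 0.42 and 0.29 on the regular diet at 9 months and by 0.57 and 0.37 on the high-fat diet. Atp6v1e1 and Atp6v1g1, of the outer stalk, rose by 0.43 and 0.29, and by 0.50 and 0.34. Atp6v1d and Atp6v1f, of the rotor, rose by 0.29 and 0.25, and by 0.39 and 0.52. At 3 months, of these 6 genes only Atp6v1c1, Atp6v1c2, Atp6v1e1 and Atp6v1f passed, each on the high-fat diet and with values of 0.19 to 0.27.

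In the V0 membrane domain the changes were uneven. Atp6v0c, the main proton-carrying ring subunit, rose by 0.44 and 0.34 at 3 months and by 1.08 and 0.94 at 9 months. Its level at 9 months was 86.7 ± 11.9 CPM in air and 183 ± 17 CPM with silica under regular feeding, and 122.5 ± 6.2 CPM and 235 ± 14 CPM under the high-fat diet, with no overlap between air and silica rats. Atp6v0b, another ring subunit, rose by 0.44, 0.40 and 0.63 in 3 comparisons and stood at 0.30 ± 0.12 on the high-fat diet at 3 months (adjusted p = 0.0787, edgeR). Without both air rats that stood apart its call on the regular diet at 3 months was lost, as were those of Atp6v0c, Atp6v0d1, Atp6v1h, Ctsc and Ctsf. Atp6v0e1, a small membrane subunit, rose by 0.30 on the high-fat diet at 9 months. Its relative Atp6v0e2 was not called with silica, with values from -0.12 to 0.19.

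The a subunits steer the pump to its membrane, and the isoforms parted. Atp6v0a1 rose by 0.60, 0.50, 0.75 and 0.99, from 121.7 ± 6.7 CPM in air to 204 ± 10 CPM with silica on regular food at 9 months and from 123 ± 5 CPM to 244 ± 14 CPM on the high-fat diet. Atp6v0a2, the isoform of Golgi and endosomes, was not called with silica, with values between -0.09 and 0.13. Its share of the counts on both genes was 23.7% ± 1.8 in air and 18.3% ± 1.1 with silica on regular food at 3 months, and for high-fat rats 25.9% and 18.9%. At 9 months it was 22.7% and 15.0% on the regular diet and 21.6% ± 1.0 and 12.0% ± 1.1 on the high-fat diet. The share of Atp6v0a2 was thus smaller in silica rats at both times and on both diets. Atp6v0a4, the isoform of acid-secreting epithelia, had 2 to 25 counts a rat and was not called, with values from -0.35 to -0.79. Tcirg1, which encodes the a3 isoform of lysosomes and osteoclasts and lies outside the symbol rule, rose by 0.29, 0.36, 0.60 and 0.89.

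The largest changes among pump genes were those of Atp6v0d2. It encodes the d2 form of the subunit that couples rotor and membrane ring, a form known from osteoclasts and macrophages, while Atp6v0d1 encodes the form found in most cells. On the regular diet at 3 months the 4 air rats had 4.44, 8.87, 1.72 and 6.31 CPM of Atp6v0d2, and the 5 silica rats 21.4, 20.8, 26.9, 28.3 and 21.8 CPM. High-fat air rats had 0.68, 1.63, 0.18, 1.37 and 1.51 CPM and high-fat silica rats 13.7, 8.79, 11.8, 14.8 and 12.4 CPM. Every silica rat lay above every air rat on its diet, and the high-fat rats lay below the regular-diet rats of the same exposure. The log2 fold changes were 2.13 ± 0.24 (adjusted p = 1.51e-06, edgeR) and 3.48 ± 0.34 (adjusted p = 1.8e-07, edgeR). The high-fat air rats held 34 counts of the gene in all, so that fold rests on few reads.

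At 9 months Atp6v0d2 ran from 3.45 to 12.8 CPM in regular-diet air rats, with a median of 5.36 CPM. The 5 regular-diet silica rats had 18.7, 30.0, 17.1, 25.3 and 21.3 CPM. In high-fat air rats it ran from 0.89 to 3.05 CPM with a median of 1.55 CPM, and in high-fat silica rats from 15.9 to 22.9 CPM with a median of 19.3 CPM. Air and silica rats did not overlap on either diet, and the silica rats of the diets did. The gene rose by 1.67 ± 0.23 on the regular and 3.48 ± 0.28 on the high-fat diet. Its partner Atp6v0d1 rose by 0.32 and 0.65. Of the counts on both genes, Atp6v0d2 made up 3.75% in air and 13.05% with silica on regular food at 3 months, and for high-fat rats 0.784% and 7.36%. At 9 months these shares were 4.81% and 11.4%, and 1.43% and 9.57%.

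**Figure D2:**
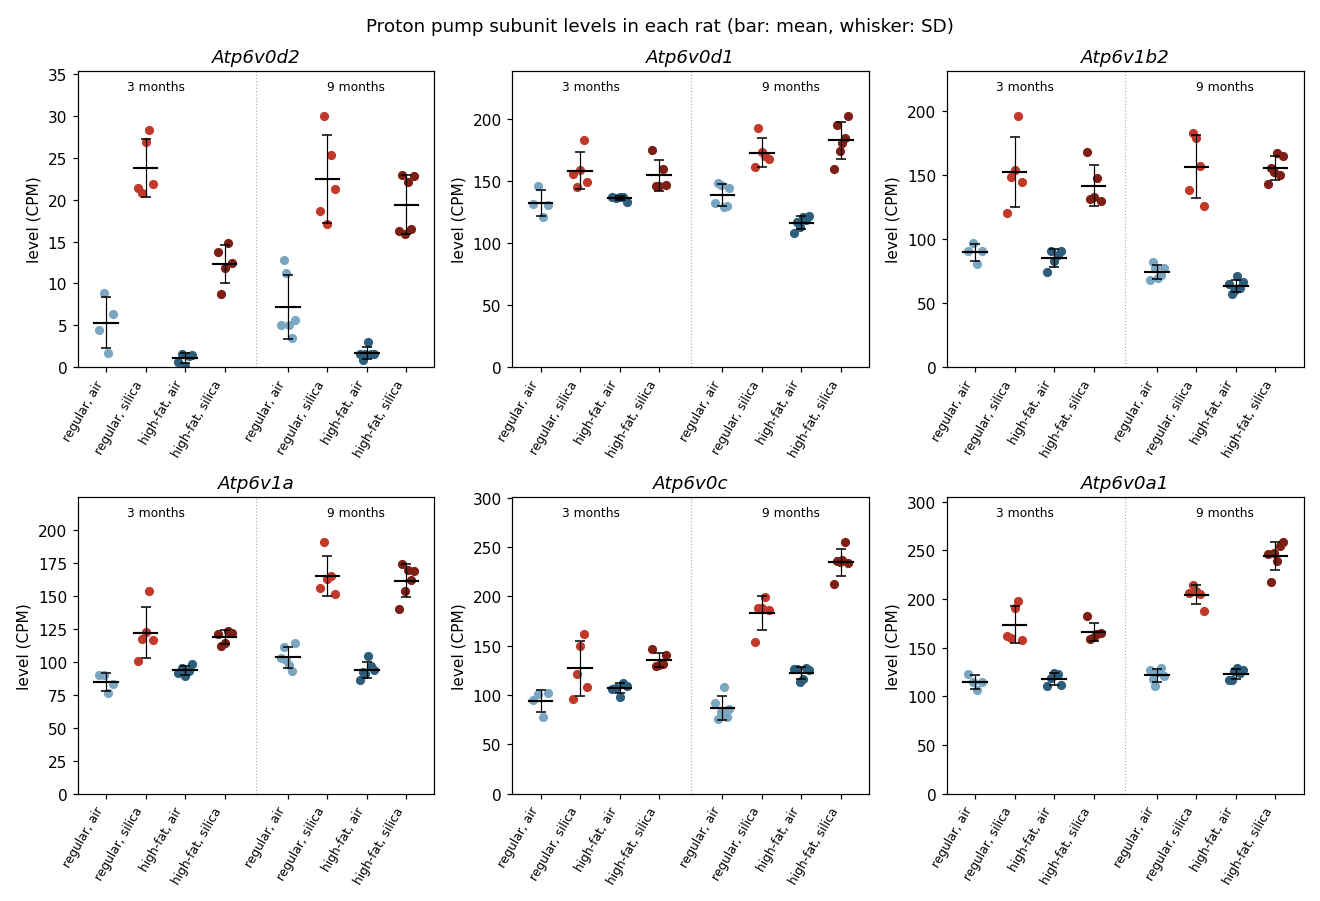
Level in CPM of 6 pump genes in each rat (points), by diet and exposure at 3 and 9 months, with the group mean as a bar and the SD as a whisker. For Atp6v0d2 the high-fat air rats lie at 3.05 CPM or below and the silica rats of every group at 8.79 CPM or above.

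The accessory proteins help the pump assemble. Atp6ap2, also known as the prorenin receptor, rose by 0.49, 0.27, 0.27 and 0.50. Atp6ap1 rose at 9 months, by 0.45 ± 0.05 on the regular diet (adjusted p = 6.47e-08, edgeR) and 0.40 ± 0.05 on the high-fat diet (1.35e-07). At 3 months it stood at -0.11 ± 0.18 and -0.08 ± 0.17 with all rats (adjusted p = 0.727 and 0.825, edgeR). Without both air rats that stood apart edgeR gave 0.17 (adjusted p = 0.0698) and 0.19, which passed (adjusted p = 0.0186).

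Among the 12 cathepsins are 9 cysteine proteases, the aspartic proteases Ctsd and Ctse and the serine carboxypeptidase Ctsa. Of them 7 rose with silica in all 4 comparisons, Ctsa, Ctsb, Ctsd, Ctsh, Ctsk, Ctss and Ctsz. The summed level of the 12 genes was 3206 ± 305 CPM in air and 4939 ± 628 CPM with silica on regular food at 3 months, and 2862 ± 100 CPM and 4328 ± 418 CPM on the high-fat diet. At 9 months it was 3418 ± 452 CPM and 6546 ± 767 CPM on the regular diet, and 2658 ± 116 CPM and 6640 ± 448 CPM on the high-fat diet. The ranges of air and silica rats did not overlap. The summed pump genes moved less, from 1435 ± 66 CPM to 2011 ± 119.3 CPM on the regular diet and from 1360 ± 35 CPM to 2097 ± 73 CPM on the high-fat diet at 9 months.

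Ctsk, a collagen-degrading protease best known from osteoclasts, had the largest rise among cathepsins in 3 of the 4 comparisons. The 4 regular-diet air rats at 3 months had 13.5, 17.7, 12.2 and 18.1 CPM and the silica rats 41.8, 28.6, 38.9, 53.8 and 38.5 CPM. The high-fat values were 11.3, 11.4, 10.02, 10.35 and 9.37 CPM in air and 28.3, 22.6, 20.7, 22.2 and 20.2 CPM with silica. Air and silica rats did not overlap on either diet, and the lowest regular-diet silica rat lay above the highest high-fat one. The log2 fold changes were 1.37 ± 0.15 and 1.11 ± 0.16 (adjusted p = 1.46e-06 and 3.79e-05, edgeR). At 9 months Ctsk rose by 1.45 ± 0.19 on the regular diet and 2.57 ± 0.21 on the high-fat diet, from 9.50 ± 1.5 CPM to 56.2 ± 10.6 CPM in the latter.

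Ctsd is the main aspartic protease of lysosomes. Its values on the regular diet at 3 months were 897, 1102, 715 and 970 CPM in air and 1393, 1331, 1798, 2084 and 1467 CPM with silica. High-fat rats had 655, 731, 685, 752 and 741 CPM in air and 1469, 1133, 1188, 1396 and 1198 CPM with silica. Each silica rat was above each air rat of its diet, by 0.81 ± 0.12 and 0.84 ± 0.11 on the log2 scale. At 9 months Ctsd rose by 1.01 ± 0.10 on the regular diet and 1.65 ± 0.10 on the high-fat diet (adjusted p = 9.2e-09 and 3.96e-13, edgeR). Silica rats had 2078 ± 272 CPM and 2059 ± 124.1 CPM on the regular and high-fat diets.

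Ctsh, Ctsz, Ctsb, Ctss and Ctsa were the other cathepsins called in all 4 comparisons. Ctsh, an aminopeptidase that alveolar type 2 cells use to process surfactant proteins, rose by 0.85, 0.84, 1.46 and 1.72, and reached 1577 ± 168 CPM with silica on the high-fat diet at 9 months against 479 ± 35 CPM in air. Ctsz, a carboxypeptidase of phagocytes, rose by 0.96, 1.04, 1.23 and 1.76. Ctsb rose by 0.58, 0.53, 0.96 and 1.29. Ctss, which trims the class II invariant chain, rose by 0.60, 0.67, 1.02 and 1.35, and Ctsa, which also protects lysosomal galactosidase and sialidase, by 0.59, 0.42, 0.65 and 0.99.

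Ctsc, Ctsf, Ctse and Ctsw were called in some comparisons. Ctsc, the dipeptidyl peptidase that activates granule proteases of neutrophils and lymphocytes, rose by 0.22, 0.32 and 0.21 and stood at 0.16 ± 0.07 on the regular diet at 9 months (adjusted p = 0.0704, edgeR). Ctsf rose by 0.24 on the regular diet at 3 months and by 0.26 on the high-fat diet at 9 months. Ctse, a non-lysosomal aspartic protease, rose by 0.56, 0.67 and 0.36, and stood at 0.43 ± 0.19 on the regular diet at 3 months, which missed the threshold. Ctsw, a protease of cytotoxic lymphocytes, was not called at 3 months (0.05 and 0.06) and rose by 0.88 and 0.68 at 9 months. The summed level of 9 T and NK cell markers was 214 ± 22 CPM in air and 209 ± 10 CPM with silica on regular food at 9 months. Of them 3 were called higher and 3 lower, where 24.5% of all genes were called higher and 20.6% lower.

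Ctsl was the cathepsin that fell. The regular-diet air rats at 3 months had 281, 271, 298 and 274 CPM and the silica rats 244, 243, 210, 223 and 230 CPM. High-fat air rats had 289, 278, 303, 261 and 272 CPM and silica rats 238, 219, 243, 236 and 222 CPM. At 9 months it ran from 193 to 234 CPM (median 204 CPM) in regular-diet air rats, and the silica rats had 143, 149, 168, 168 and 174 CPM. High-fat air rats ran from 181 to 208 CPM (median 199 CPM) and silica rats from 143 to 162 CPM (median 159 CPM). Every silica rat lay below every air rat of its diet and time. Ctsl fell by 0.29, 0.27, 0.38 and 0.33 on the log2 scale (adjusted p = 0.000755, 0.000591, 6.86e-06 and 2.1e-05, edgeR), and these calls held under every alternative tried.

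**Figure D3:**
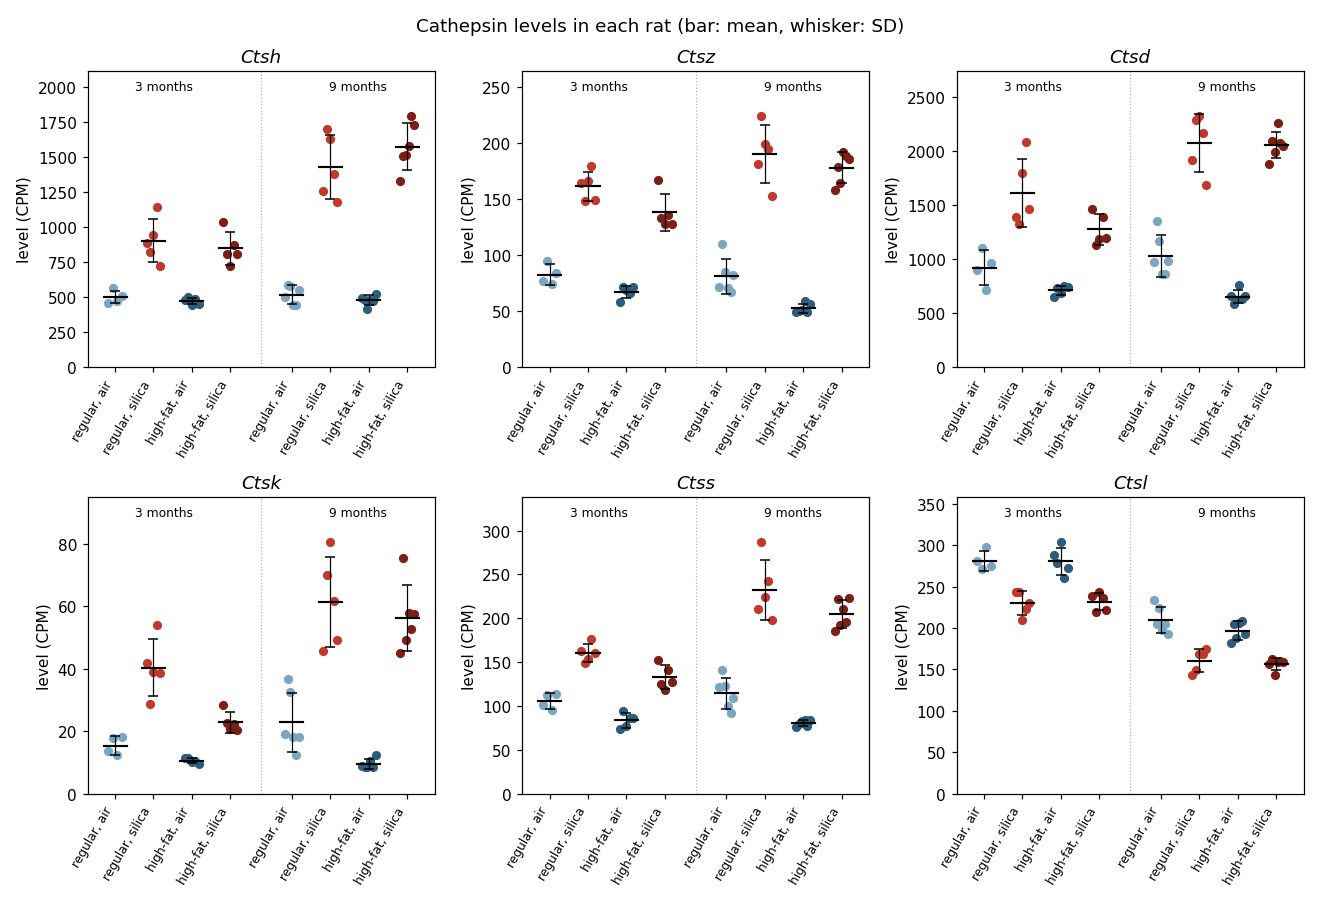
Level in CPM of 6 cathepsins in each rat (points), by diet and exposure at 3 and 9 months, with the group mean as a bar and the SD as a whisker. For Ctsh, Ctsz, Ctsd, Ctsk and Ctss the silica rats lie above the air rats of their diet and time, and for Ctsl below them.

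Members whose air and silica rats did not overlap numbered 8 pump genes and 9 cathepsins on each diet at 3 months, where 14.7% of all genes on the regular and 12.9% on the high-fat diet did not overlap. At 9 months they numbered 12 pump genes and 9 cathepsins on the regular diet (23.8% of all genes), and 16 pump genes and 9 cathepsins on the high-fat diet (29.6%). In each of these counts 1 cathepsin, Ctsl, lay below.

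Markers of neutrophils, macrophages and alveolar type 2 cells rose with the same exposure. Of all genes 10.2%, 9.23%, 24.5% and 26.7% rose in the 4 silica comparisons, and 6.6%, 8.19%, 20.6% and 24.9% fell. Of 6 neutrophil markers 5, 3, 6 and 5 rose in the 4 comparisons, and their summed level went from 154 to 691 CPM, 172 to 530 CPM, 187 to 845 CPM and 216 to 1013 CPM with no overlap between air and silica rats. Mpo, a neutrophil granule enzyme, was at 0 in 2 of the 8 groups. Of 7 tested alveolar macrophage markers 5 rose on each diet at 3 months, and at 9 months 8 of 9 and 9 of 9. Their summed level ran from 414 to 535 CPM in air and from 627 to 987 CPM with silica on regular food at 3 months, and from 340 to 400 CPM and 513 to 615 CPM on the high-fat diet. At 9 months the ranges were 498 to 704 CPM and 906 to 1276 CPM on the regular diet, and 366 to 468 CPM and 839 to 1032 CPM on the high-fat diet. No listed macrophage marker was at 0 in any group, although Marco stayed at 3.23 CPM or below in every rat. Of 8 type 2 cell markers 6 rose on each diet at 3 months, and at 9 months 5 rose and 1 fell on the regular and 6 rose and 1 fell on the high-fat diet, with none at 0. Their sums ran from 16986 to 20760 CPM in air and 23272 to 33770 CPM with silica at 3 months, and from 14541 to 24484 CPM and 27273 to 37475 CPM at 9 months. Type 1 cell markers fell in 5, 4, 5 and 6 of 6 in the 4 comparisons, and endothelial markers in 5, 3, 4 and 5 of 5. At 9 months the mast cell markers summed to 304 CPM (air) and 214 CPM (silica) in regular-diet rats and to 369 and 238 CPM in high-fat rats, with 3 and 2 of 5 called higher and 1 called lower. Whether the members move with the number of these cells was not tested.

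**Figure D4:**
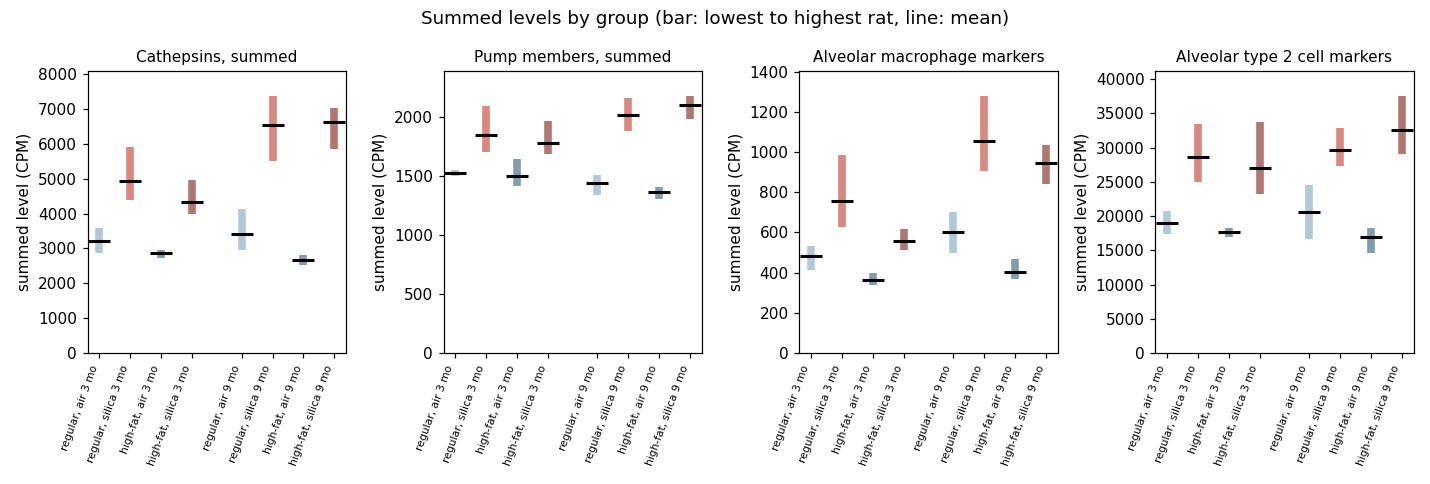
Summed level in CPM of the 12 cathepsins, the 20 pump genes and the listed markers of alveolar macrophages and alveolar type 2 cells, by group; bars run from the lowest to the highest rat and lines mark the mean. In all 4 panels the silica bars lie above the air bar of the same diet and time.

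The starts of the members' genes were read for the E-box CACGTG. These letters are bound by the MiT transcription factors (Tfeb, Tfe3, Mitf and Tfec), which are known to switch on lysosomal genes. RefSeq promoter windows of 250 bases before to 50 bases after the gene start (build GRCr8) were matched for 25 of the 32 members; Atp6v0d2, Atp6v0e2, Atp6v1b2, Atp6v1c1, Atp6v1h, Ctsb and Ctsw had none in the table. CACGTG reads the same on both strands. It was found in 4 of 25 windows (16.0%), those of Atp6v0d1, Atp6v0e1, Ctsd and Ctsf, and in 6.42% of 33469 windows of the same length. The longer TCACGTGA, which contains it, was in 3 of 25 (12.0%) and in 0.777% of all windows. The 10-letter form with a further G before and C after it was in 0 of 25 and in 0.233% of all windows. These are descriptions of letters, with no test. Of the 4 members with CACGTG, Ctsd alone was called higher with silica in all 4 comparisons.

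Stretches just before the gene start are shown for 5 members, 2 with the E-box, Ctsl, which fell, and Ctsk and Ctsz, which rose. They lie at chr1:206968822-206968991 (minus strand, Ctsd), chr19:50357249-50357348 (minus strand, Atp6v0d1), chr17:770004-770103 (plus strand, Ctsl), chr2:185747448-185747547 (plus strand, Ctsk) and chr3:183653848-183653947 (minus strand, Ctsz) of GRCr8, are written 5′ to 3′, and end at the last base before the start. Capitals mark CACGTG.
Ctsd: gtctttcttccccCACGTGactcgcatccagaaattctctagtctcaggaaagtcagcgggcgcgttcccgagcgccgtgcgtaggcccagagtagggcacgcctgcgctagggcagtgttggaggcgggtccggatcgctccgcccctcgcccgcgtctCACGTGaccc
Atp6v0d1: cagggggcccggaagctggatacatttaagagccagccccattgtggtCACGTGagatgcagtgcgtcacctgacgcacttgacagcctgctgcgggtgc
Ctsl: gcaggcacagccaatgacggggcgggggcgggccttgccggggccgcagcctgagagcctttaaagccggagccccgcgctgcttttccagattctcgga
Ctsk: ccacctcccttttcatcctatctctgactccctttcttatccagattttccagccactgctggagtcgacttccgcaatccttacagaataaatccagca
Ctsz: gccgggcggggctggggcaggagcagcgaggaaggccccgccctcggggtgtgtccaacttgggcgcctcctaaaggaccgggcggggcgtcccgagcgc
Ctsd carried the letters at 2 places, 157 and 10 bases before the start, and Atp6v0d1 at 1, 52 bases before it. The windows of Ctsl, Ctsk and Ctsz held no match, which says only that these letters are not in them.

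The MiT factors themselves rose with silica. Tfec rose in all 4 comparisons, by 1.05, 0.78, 0.81 and 0.78, from 7.49 ± 0.65 CPM to 15.5 ± 1.8 CPM on the regular diet at 3 months. Mitf rose by 0.32 on the high-fat diet at 3 months and by 0.50 and 0.47 at 9 months. Tfeb and Tfe3 rose at 9 months, Tfeb by 0.52 and 0.47 and Tfe3 by 0.29 and 0.37, and neither was called at 3 months.

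Members called between the diets in air were mostly lower on the high-fat diet. In air at 3 months 2 pump genes and 1 cathepsin were lower, where 2.95% of all genes were called, 1.3% lower. Atp6v0d2 fell by 2.31 ± 0.43 (adjusted p = 0.0104, edgeR), from 5.33 ± 3.02 CPM to 1.07 ± 0.62 CPM, and all 5 high-fat rats lay below all 4 regular-diet rats. Ctss fell by 0.34, from 105 ± 9 CPM to 83.3 ± 8.1 CPM. Atp6v1g1 fell by 0.24, from 145.5 ± 7.9 CPM to 123.7 ± 7.9 CPM. Under the leave-one-out and other fits only the Atp6v0d2 call held throughout. Among the members, 2 pump genes and 3 cathepsins had rats that did not overlap between the diets, where 9.96% of all genes did not overlap.

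At 9 months 9 pump genes and 7 cathepsins were lower and 1 pump gene higher on the high-fat diet in air, where 15.2% of all genes were called, 8.16% higher and 7.06% lower. Atp6v0d2 was at 7.21 ± 3.84 CPM on the regular and 1.70 ± 0.72 CPM on the high-fat diet, a fall of 2.03 ± 0.33 (adjusted p = 0.000144, edgeR). Ctsk fell by 1.27, Ctsd by 0.66, Ctsz by 0.63, Ctss by 0.51, Ctsf by 0.41, Ctsa by 0.38 and Ctsb by 0.29. Ctsd ran from 860 to 1359 CPM (median 977 CPM) on the regular diet and from 591 to 766 CPM (median 647 CPM) on the high-fat diet, with no overlap. In all 4 pump genes (Atp6v0c above, Atp6v0d1, Atp6v0d2 and Atp6v1h below) and 6 cathepsins (all below) had rats that did not overlap, and so had 6.05% of all genes. Atp6ap2, Atp6v0b, Atp6v0d1, Atp6v1h, Atp6v0e1, Atp6v1b2, Atp6v1f and Atp6v1c1 fell by 0.18 to 0.38. Atp6v0c was the pump gene that rose, by 0.49 ± 0.07 (adjusted p = 5.49e-05, edgeR), from 86.7 ± 11.9 CPM to 122.5 ± 6.2 CPM.

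These 17 calls at 9 months rest on groups whose Rnr1 and Rnr2 share did not overlap. With that share as a covariate, edgeR passed 0 of the 17 and 1 gene of all, against 2325 without it. Some values were then as large as before, such as Atp6v0d2 at -2.18, Ctsk at -1.38 and Ctsd at -0.73, and others were smaller, such as Atp6ap2 at -0.15, Ctss at -0.33 and Atp6v0c at 0.31. The adjusted p of the 17 ran from 0.605 to 0.937 (edgeR). Alveolar macrophage markers were also lower, 6 of 9 on the high-fat diet in air at 9 months, where 7.06% of all genes were lower. Their sums were 498 to 704 CPM on the regular and 366 to 468 CPM on the high-fat diet. Their part in the result was not tested.

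With silica fewer members differed between the diets. At 3 months Atp6v0d2 was lower on the high-fat diet by 0.96 ± 0.18 (adjusted p = 0.0108, edgeR) and Ctsk by 0.82 ± 0.13 (adjusted p = 0.00242), where 0.702% of all genes were called, 0.407% lower. For both genes every high-fat silica rat lay below every regular-diet silica rat, and 2.19% of all genes did not overlap in either direction. At 9 months Atp6v0d2 stood at -0.22 ± 0.20 and Ctsk at -0.15 ± 0.18, and neither was called. Atp6v0c and Atp6v0a1 were higher on the high-fat diet by 0.36 ± 0.07 and 0.26 ± 0.05 (adjusted p = 0.00919 and 0.00476, edgeR), where 3.52% of all genes were called, 1.82% higher, and their rats did not overlap (3.17% of all genes). With the Rnr1 and Rnr2 share as a covariate they stood at 0.21 and 0.30 and did not pass. Of the cathepsins edgeR called 0 of 12, with 0 at an unadjusted p below 0.05, and DESeq2 and limma voom also called 0.

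**Figure D5:**
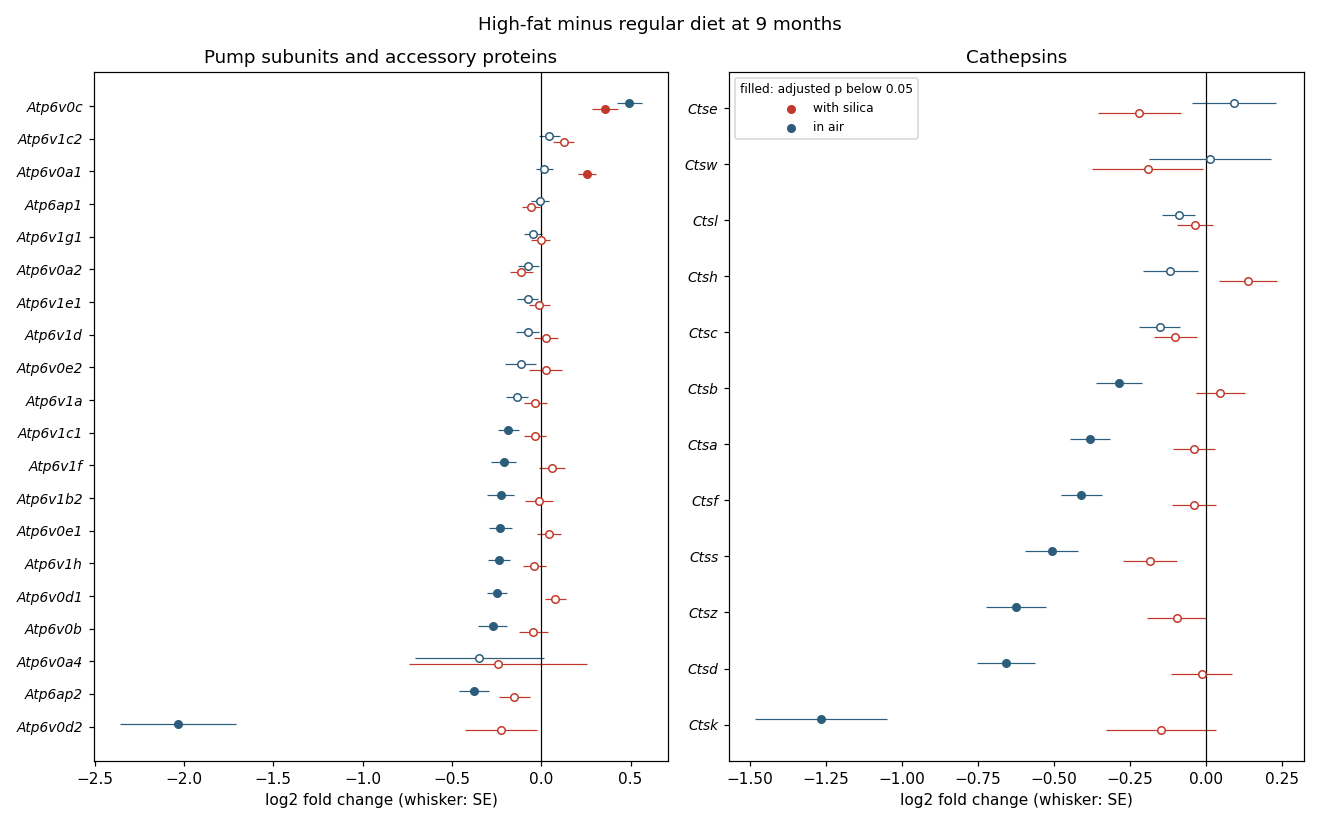
Log2 fold change (high-fat minus regular diet at 9 months) of each pump gene (left) and cathepsin (right), in air and with silica, with its standard error as a whisker; filled points have an adjusted p below 0.05. Most air points lie left of 0, down to -2.03 for Atp6v0d2, and the silica points lie between -0.24 and 0.36.

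Whether the silica effect differed between the diets was tested as an interaction. At 3 months edgeR called 0 of the 32 members and 0% of all genes, with 1 member, Atp6v0d2, and 990 genes at an unadjusted p below 0.05. DESeq2 called 0 members and 1 gene, and limma voom 0 of both. For Atp6v0d2 the difference was 1.35 ± 0.48 (adjusted p = 0.736, edgeR). At 9 months 4 members had a larger silica effect on the high-fat diet, where 1.09% of all genes were called, 0.55% higher. These were Atp6v0d2 (1.81 ± 0.39, adjusted p = 0.0226, edgeR), Ctsd (0.64 ± 0.14, 0.0226), Ctsk (1.12 ± 0.28, 0.0499) and Atp6v0d1 (0.33 ± 0.08, 0.0457). For Ctsd the silica means were 2078 CPM on the regular and 2059 CPM on the high-fat diet, and the air means 1034 and 655 CPM. Atp6v0d2 and Ctsd held under every alternative and without any 1 rat, with values of 1.57 to 2.06 and 0.55 to 0.69. The call of Ctsk was kept in 7 and that of Atp6v0d1 in 8 of 23 fits that left out 1 rat.

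Silica effects were also compared between the times. On the high-fat diet 8 pump genes and 7 cathepsins had a larger silica effect at 9 than at 3 months, where 10.7% of all 15759 genes were called, 6.55% larger and 4.12% smaller. Ctsk led with 1.46 ± 0.29 (adjusted p = 0.000986, edgeR), followed by Ctsh (0.88), Ctsd (0.81), Ctsb (0.76), Ctsz (0.72), Ctss (0.68) and Ctsa (0.57). The pump genes were Atp6v0c (0.60), Atp6v1b2 (0.56), Atp6v0a1 (0.49), Atp6v0d1 (0.47), Atp6v1a (0.44), Atp6v1c1 (0.36), Atp6v1e1 (0.30) and Atp6v1d (0.27). The A and B subunits of the V1 head and a V0 ring subunit were thus among them.

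On the regular diet 2 pump genes and 4 cathepsins changed with time (6.78% of all genes, 3.71% larger and 3.07% smaller). The silica effect was larger at 9 months for Atp6v0c (0.63 ± 0.14), Atp6v1g1 (0.30), Ctsh (0.61 ± 0.15), Ctss (0.42) and Ctsb (0.37), and smaller for Ctsf (-0.36). With the Rnr1 and Rnr2 share as a covariate none of these 6 calls was kept, and Ctsw was called in their place. For Atp6v0d2 the change with time was -0.45 on the regular and 0.01 on the high-fat diet (adjusted p = 0.517 and 0.997, edgeR), neither called. Atp6ap1 stood at 0.55 ± 0.19 on the regular diet (adjusted p = 0.0616, edgeR). Without both air rats that stood apart it was at 0.26, which passed (adjusted p = 0.0342, edgeR). On the high-fat diet it stood at 0.48 with all rats and 0.21 without both (adjusted p = 0.0742 and 0.0578, edgeR), neither called.

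Other lysosomal genes were called as well. Of 34 other lysosomal hydrolases 23, 20, 26 and 30 rose in the 4 silica comparisons, in the order regular and high-fat diet at 3 months and then at 9 months, and 0, 0, 1 and 2 fell. Their median log2 fold changes were 0.36, 0.29, 0.48 and 0.72. Of all genes 10.2%, 9.23%, 24.5% and 26.7% were called higher in the same order, and 6.6%, 8.19%, 20.6% and 24.9% lower. The same shares apply to the silica counts of the lists that follow. Acp5, a phosphatase of macrophages and osteoclasts, rose by 0.95, 0.96, 0.97 and 1.49, and Lgmn, the asparagine endopeptidase that activates cathepsins, by 0.79, 0.83, 0.97 and 1.53. On the high-fat diet in air at 9 months 19 of the 34 were lower, where 7.06% of all genes were, and with the Rnr1 and Rnr2 share as a covariate 1 gene of all was called there.

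Of 13 lysosomal membrane proteins 9, 10, 11 and 12 rose with silica, and 1, Laptm4a on the regular diet at 9 months, fell. Gpnmb, a membrane glycoprotein of lipid-laden macrophages, rose by 1.27, 1.70, 1.79 and 2.70, and Cd68 by 1.21, 1.21, 1.68 and 2.26. Lamp1, a membrane protein of lysosomes, rose by 0.28, 0.18, 0.31 and 0.58. Of 11 lysosomal ion channels and exchangers 6, 2, 7 and 8 rose, led by Mcoln3 (0.96, 1.41, 0.98 and 1.61) and Mcoln2 (0.93, 1.31, 0.75 and 1.54), while Tpcn1, an endolysosomal cation channel, fell in 3.

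Factors that assemble or recycle the pump were mostly not called. In the 4 silica comparisons 10.2%, 9.23%, 24.5% and 26.7% of all genes rose, and 6.6%, 8.19%, 20.6% and 24.9% fell. Of 7 tested RAVE and TLDc genes 0, 1, 1 and 2 rose and 1 fell in each comparison, Oxr1, by 0.15 to 0.18. Their summed level was 947 ± 39 CPM in air and 921 ± 25 CPM with silica on regular food at 9 months. Cystatins, which inhibit cysteine cathepsins, rose in 1, 1, 2 and 3 of 4 tested. Cstb, the cytosolic inhibitor, rose by 0.55, 0.69, 0.85 and 1.34, and Cst3, the secreted one, by 0.21 on the high-fat diet at 9 months. Of 10 galectin and lysosome damage response genes 3, 3, 5 and 6 rose, among them Lgals3, the galectin that marks broken lysosomes, by 1.29, 1.55, 1.07 and 2.0.

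Among 8 tested osteoclast-type genes 4, 4, 7 and 7 rose. The list contains Atp6v0d2, Ctsk and Acp5, whose rises are given above and are counted again here. Together with Tm4sf19 they make up the whole count on each diet at 3 months, so no other listed gene was called higher then. Tm4sf19 rose by 2.70, 2.94, 2.13 and 3.09. The fusion gene Dcstamp was at 0 in all rats of 7 groups and Calcr, the calcitonin receptor, stayed at 0.43 CPM or below. Foxi1, the master regulator of acid-secreting cells, was at 0.182 CPM or below in every rat. Slc26a4, the anion exchanger pendrin, was listed with the genes of such cells and rose by 4.02, 4.42, 4.56 and 5.99. Others of that list did not follow it. Atp6v0a4 was not called, Atp6v1b1 and Atp6v1g3 were left out for low counts, and Rhcg was at 0 in both silica groups at 3 months. Atp6v1c2 was called higher on the high-fat diet at 3 months and on both diets at 9 months. The remaining genes of that list are not reported here.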

How the data were processed

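RNA was measured in a piece of lung from each of 42 rats in 8 groups, as stranded total RNA libraries depleted of ribosomal RNA. The authors deposited raw counts per gene, 1 table per time point. Per the submitters' processing notes, the tools were TopHat2 2.0.9 with Bowtie2 2.2.9, HTSeq 0.6.1, Trimmomatic 0.35, SAMtools 0.1.19 and bcl2fastq, and the build was Rnor_6.0. The annotation and the strand setting of the counting are not given in the sources used here, so reads shared with antisense, overlapping or near-identical genes (such as copies of Atp6v0c) cannot be told apart. Both tables' 30045 rows entered and 0 sample columns were left unused.

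Low-count genes were removed with filterByExpr, libraries were scaled by TMM, and edgeR 4.0.16 (R 4.3.3) fitted all groups of a time point with a quasi-likelihood model. A joint model of the 8 groups gave the differences between times. The 12 comparisons were tested two-sided, with Benjamini-Hochberg adjustment over all genes, and the SE was taken from the fold change and its F value. DESeq2 1.42.0, limma 3.58.1 voom with sample weights, other scaling, no filter, the older edgeR dispersion setting, the 2 compared groups alone, the Rnr1 and Rnr2 share as covariate and leaving out each rat were the alternatives. Leaving out both air rats with high Atp6ap1 was added after seeing the data. The scripts were tested on simulated counts. The labels name separate rats, so p-values measure the spread between rats. Counting precision differs with depth, which ran from 3078216 to 8319382 counts a library, and no 2 libraries agreed within sampling noise.

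All members are accounted for by name. Levels are given for called members that changed by a log2 value of 1 or more and for a fixed panel of members, and from the other lists for a panel and the 3 genes with the smallest p. Marco, Laptm4a, Mcoln2, Mcoln3, Tpcn1, Oxr1, Tfe3, Lgals3, Tm4sf19, Slc26a4, Dcstamp and Calcr were named after their values were seen. The members and lists were chosen with earlier results of these data known. Some genes of the lists and of the run of neighbours of Atp6ap1 are not reported here.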

Additional observations from a re-analysis of the deposited data

Results flagged for a closer look

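A rat was flagged when its gap to the next rat was a large part of the range of its group (Dixon test). That happened in 11 of 144 groups of values, where chance gives about 1 in 20. The flag does not measure how large the gap is in level. Atp6ap1 was at 288 CPM in regular-diet air rat 3 and at 292 CPM in high-fat air rat 2 at 3 months, each the highest of its group. At 3 months the highest values of other genes were 27.1 CPM of Ctse in high-fat silica rat 2, 28.3 CPM of Ctsk and 167 CPM of Ctsz in high-fat silica rat 1, and 10.9 CPM of Ctsw in high-fat air rat 2. High-fat air rat 5 had the lowest Atp6v0d1, at 132.9 CPM. At 9 months Atp6v0d2 was highest at 3.05 CPM in high-fat air rat 4, and Ctsw at 7.86 CPM in high-fat air rat 3. The lowest values there were 154 CPM of Atp6v0c in regular-diet silica rat 1 and 143 CPM of Ctsl in high-fat silica rat 3.

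The silica effect at 9 months differed between the diets, by a test of the difference itself, for Atp6v0d2 (1.81), Ctsk (1.12), Ctsd (0.64) and Atp6v0d1 (0.33), each larger on the high-fat diet (log2 scale).

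The silica effect differed between the times, 9 minus 3 months. On the regular diet the difference was 0.63 for Atp6v0c, 0.61 for Ctsh, 0.42 for Ctss, 0.37 for Ctsb, 0.30 for Atp6v1g1 and -0.36 for Ctsf. High-fat pump genes differed by 0.60 (Atp6v0c), 0.56 (Atp6v1b2), 0.49 (Atp6v0a1), 0.47 (Atp6v0d1), 0.44 (Atp6v1a), 0.36 (Atp6v1c1), 0.30 (Atp6v1e1) and 0.27 (Atp6v1d). High-fat cathepsins differed by 1.46 (Ctsk), 0.88 (Ctsh), 0.81 (Ctsd), 0.76 (Ctsb), 0.72 (Ctsz), 0.68 (Ctss) and 0.57 (Ctsa).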

How the results depend on the processing

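No called value changed sign. Atp6ap1, not called for silica at 3 months, went from -0.11 to 0.17 on the regular and from -0.08 to 0.19 on the high-fat diet without both air rats that stood apart. No paired analysis was possible because the numbers of the rats only name them and no rat or cage is shared between groups in the labels. Calls of the silica effect kept under every alternative fit with all rats, and without both air rats that stood apart, numbered 13 of 19 and 17 of 21 at 3 months and 22 of 25 and 28 of 29 at 9 months (regular and high-fat diet). With the Rnr1 and Rnr2 share as covariate the called members became 1 in place of 3 (diet in air, 3 months), 0 in place of 17 (diet in air, 9 months), 0 in place of 2 (diet with silica, 9 months), 2 in place of 4 (interaction, 9 months) and, for the times on the regular diet, 1 (Ctsw) that was not among the 6. DESeq2 called 6 members for the diet in air at 3 months and 8 for the interaction at 9 months, and a fit of the 2 groups alone called 5 for the former.

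Leaving out 1 rat gave 1 to 4 members for the diet in air and 2 to 4 for the diet with silica at 3 months, 2 to 7 for the interaction at 9 months and 3 to 8 for the times on the regular diet. The count of 1 came without regular-diet air rat 2 or 4 or high-fat air rat 1 or 3. For the diet in air at 9 months the range was 12 to 18. Silica gave 13 to 21 members on the regular and 15 to 23 on the high-fat diet at 3 months. At 9 months these ranges were 24 to 27 and 28 to 29. Silica calls kept without any 1 rat numbered 13 of 19 and 14 of 21 at 3 months, and 24 of 25 and 28 of 29 at 9 months.

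Over all genes, the diet in air at 3 months passed 449, against 730 by DESeq2, 956 by voom, 92 with the covariate, 761 with the 2 groups alone and 191 without both air rats that stood apart. The diet with silica at 3 months passed 107, against 2.12 times as many by DESeq2 and 59 with the 2 groups alone. The interaction at 9 months passed 167, against 348 by DESeq2 and 264 by voom. With the covariate, silica on the regular diet at 9 months passed 4561 in place of 6885, the diet in air 1 in place of 2325, the diet with silica 1 in place of 537 and the times on the regular diet 284 in place of 1068. Depth limits Atp6v0d2 and Atp6v0a4, with as few as 1 and 2 counts in a rat.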

Other observations

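The raised Atp6ap1 of both air rats at 3 months belonged to a run of 12 neighbouring X-linked genes in RefSeq's gene order (GRCr8). Their level was 1.71 to 2.16 times the mean of the other rats in regular-diet air rat 3, and 1.58 to 2.09 times in high-fat air rat 2. Of 16 genes at least 1.5 times higher in both rats, 12 were those of the run, and the other 4 were Tubb1, RGD1563861, F13a1 and LOC102552752. The 9-month rats lay between 0.925 and 1.08 times their own mean over the run. The cause was not tested.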
